A study of Mus musculus with 6 samples.

Results

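The 36 genes examined here encode the proteins with which skeletal muscle takes up glucose, stores and breaks down glycogen, runs glycolysis and handles lactate. They were taken by name from the 49315 genes of the deposited count table and were sorted into 4 steps. Glucose entry held 4 genes, glycogen 9, glycolysis 17 and lactate 6, the last including the glycerol phosphate shuttle enzyme Gpd1. The list was made by function, though with earlier results of these data known. All 36 genes passed the filter on low counts that left 15847 genes for testing.

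Muscle fibres draw glucose from blood through membrane transporters, trap it with hexokinase and either polymerise it into glycogen or split it to pyruvate. Fast-twitch fibres depend on glycolysis, reduce much of their pyruvate to lactate and export it through monocarboxylate transporter 4, whereas slow-twitch fibres are more oxidative and take up lactate through monocarboxylate transporter 1. Many enzymes of the pathway exist as a muscle isoform and 1 or more isoforms of other tissues, and the set that a fibre uses follows its type.

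Messenger RNA was measured in gastrocnemius, a mainly fast-twitch hindlimb muscle, of male C57BL6J mice, an inbred strain. The virus, an AAV9 (adeno-associated virus), was injected into this muscle when the mice were 5 months old, and tissue was collected after 5 months. The AAV9-HSA-CAAHR group (n = 3, libraries 31, 34 and 36, here CAAHR) received a constitutively active aryl hydrocarbon receptor, a ligand-sensing transcription factor whose ligand binding domain had been removed. The AAV9-HSA-GFP group (n = 3, libraries 42, 43 and 46, here GFP) received green fluorescent protein. The promoter of both transgenes came from human skeletal actin (HSA) and directs expression to muscle fibres, and mice that received no virus were not analysed here. The labels give each library a number but do not describe the animals, so p-values measure the spread between these libraries. Which portion of the muscle was used for RNA was not stated. In bulk tissue, fewer cells of a type and less RNA per cell cannot be told apart.

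Each library held between 43432994 and 58825752 counts. Values are given as CPM, that is, counts relative to the library total after TMM scaling, which evens out differences in composition between libraries. The 5 genes used to check the transgene (Ahr, Ahrr, Cyp1a1, Cyp1b1 and Nqo1) were all called higher in CAAHR, with Ahr at 9.97, 22.8 and 17.3 CPM in CAAHR libraries 31, 34 and 36 against 2.47, 2.55 and 1.87 CPM in GFP libraries 42, 43 and 46. Acta1 and Ckm, abundant fibre transcripts, were present throughout, with means of 21799 and 17325 CPM in CAAHR and of 36461 and 28671 CPM in GFP. Both were called lower in CAAHR, with log2 fold changes of -0.74 and -0.73. Des, Mb and Ttn, the other fibre transcripts listed as markers, were not called and had log2 fold changes of -0.48, 1.03 and 0.03. CAAHR library 34 stood apart from the other CAAHR libraries in its slow-fibre markers, at a summed 649 CPM against 2783 CPM in library 31 and 2518 CPM in library 36.

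Of the 36 genes, 2 fell in CAAHR muscle and none rose in the reported fit. The genes that fell were Slc16a3, the lactate exporter monocarboxylate transporter 4, and Fbp2, muscle fructose-bisphosphatase, which opposes phosphofructokinase. Calls were made at an adjusted p under 0.05, with edgeR's quasi-likelihood F test and Benjamini-Hochberg adjustment over all 15847 tested genes, which called 7.60% of all genes, 4.57% as lower and 3.04% as higher. The 2 calls are 5.56% of the 36 genes, a share near that background, and neither changed more than 2-fold, as 3.48% of all genes did with a call. The share was above the background in some other fits, at 25.0% against 12.1% of all genes with DESeq2, 41.7% against 8.62% without a filter on low counts and 25.0% against 10.7% without CAAHR library 34. Those fits called 7, 9 and 7 of the 36 genes lower and 2, 6 and 2 higher. In other fits the share was below it, at 8.33% against 9.31% with library size alone and 2.78% against 3.28% without CAAHR library 36. Without GFP library 42, 43 or 46 the share was 2.78% against 5.17%, 2.78% against 4.28% and 0.00% against 3.76%. The fitted change was below 0 for 25 of 36 genes (69.4%), against 48.8% of all tested genes. The median log2 fold change of the 36 was -0.21, against 0.01 over all tested genes. At an unadjusted p under 0.05 there were 13 lower and 5 higher genes, where the background in either direction was 23.9%. The 3 CAAHR libraries lay wholly below the 3 GFP libraries for 10 genes, against 14.9% of all genes, and wholly above for 4, against 15.0% (29.9% of all genes in either direction).

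**Figure D1:**
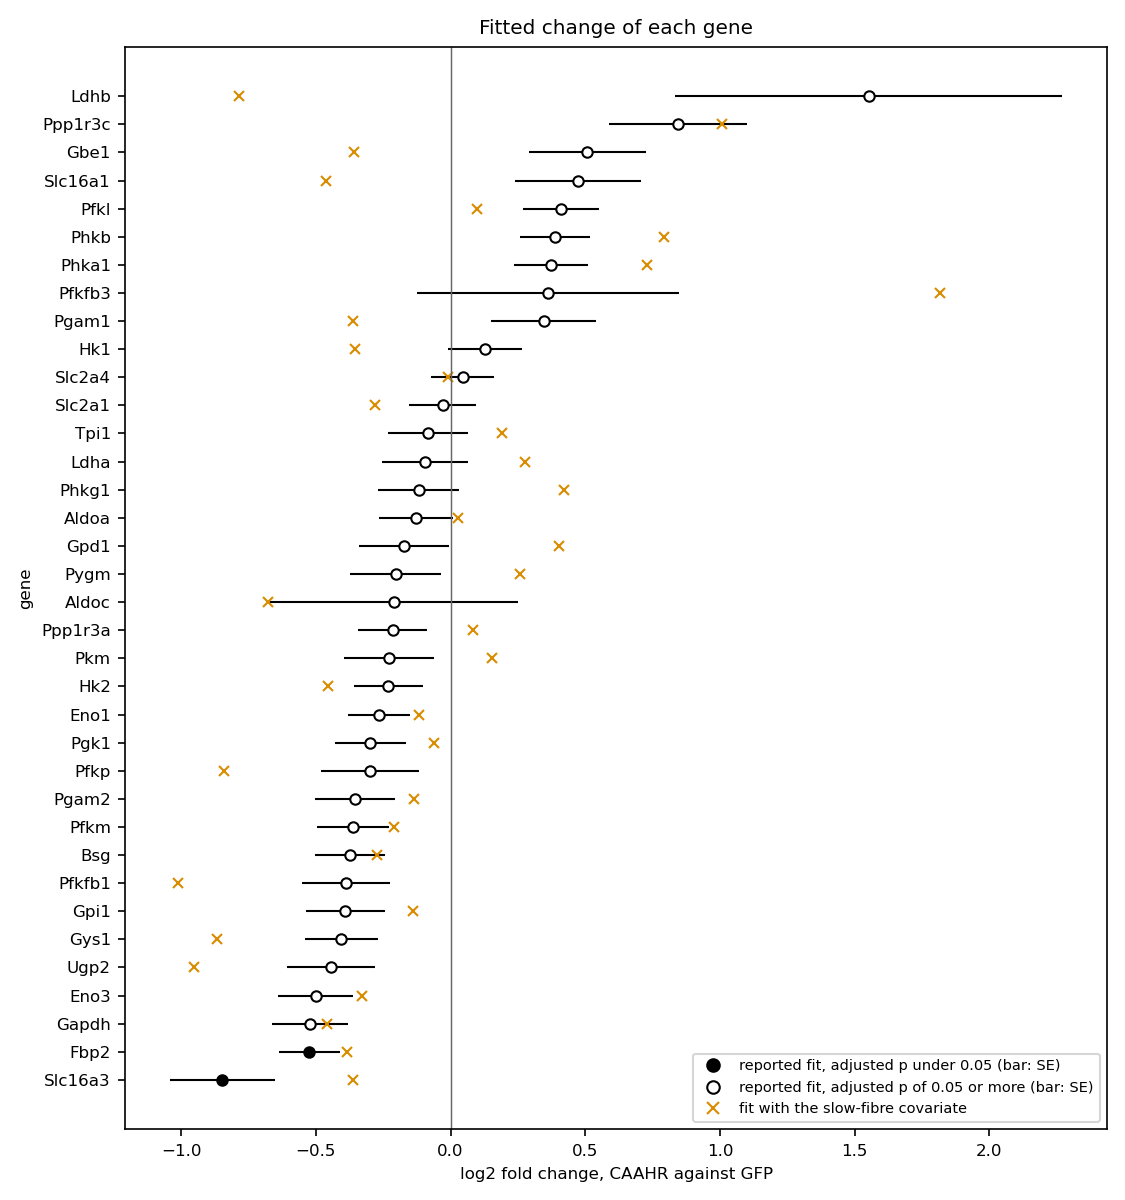
Fitted log2 fold change of CAAHR against GFP for each of the 36 genes, sorted by size, with a bar for the SE and filled circles for the 2 genes with an adjusted p under 0.05; crosses give the same quantity when a slow-fibre score was added to the model. Most circles lie left of 0, down to -0.85 for Slc16a3, while 14 crosses lie on the other side of 0 from their circle.

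Slc16a3 (chromosome 11, 120948480 to 120960868, GRCm38, plus strand) was at 212, 342 and 238 CPM in CAAHR libraries 31, 34 and 36 and at 392, 548 and 485 CPM in GFP libraries 42, 43 and 46. Every CAAHR library lay below every GFP library, with library 34 closest to the GFP range. The level fell by 44.4%, a log2 fold change of -0.85 ± 0.19 (SE), and the adjusted p from the edgeR quasi-likelihood test was 0.0336. The call was lost without CAAHR library 31 (adjusted p = 0.0993), CAAHR library 36 (0.126), GFP library 43 (0.102) or GFP library 46 (0.115), with log2 fold changes between -0.83 and -0.72 in those fits.

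Fbp2 (chromosome 13, 62836877 to 62858422, GRCm38, minus strand) was at 20.7, 25.7 and 27.2 CPM in CAAHR and at 35.5, 36.4 and 34.1 CPM in GFP. The groups did not overlap, and the GFP libraries lay close together. The level fell by 30.5%, a log2 fold change of -0.52 ± 0.11 (SE), and the adjusted p from the same edgeR quasi-likelihood test was 0.0236. The call was lost without GFP library 42 (adjusted p = 0.0624), 43 (0.0816) or 46 (0.0612), with log2 fold changes between -0.55 and -0.50.

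The stretches before the RefSeq start sites of these 2 genes are shown because both hold the letters ACGTG, the core of the hypoxia response element, close to the start. They come from RefSeq (GRCm38.p6), read 5′ to 3′ on the strand of the gene, and bases that GENCODE counts as exon were left out. The Fbp2 stretch is chr13:62858423-62858522 on the minus strand and the Slc16a3 stretch is chr11:120948953-120949052 on the plus strand. The latter lies inside the gene span given above, before 1 RefSeq start and within an intron of a longer GENCODE transcript. Capitals mark the motif, which in Fbp2 reads on both strands as CACGTG and so counts as 2 overlapping matches. Slc16a3 has 2 separate matches in its window, of which the second lies in the 14 exon bases left out and is not shown.
Fbp2: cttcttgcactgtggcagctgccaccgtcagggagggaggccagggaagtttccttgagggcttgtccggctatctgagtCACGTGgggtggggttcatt
Slc16a3: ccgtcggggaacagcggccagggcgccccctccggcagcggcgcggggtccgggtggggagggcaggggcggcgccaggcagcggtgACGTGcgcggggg

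Promoter windows of 250 bases before to 50 bases after the RefSeq start were matched for 33 of the 36 genes (not for Bsg, Slc2a4 and Gpd1). ACGTG on either strand was in any window of 18 of 33 genes (54.5%), against 28.6% of 11230 tested genes with a window and 21.8% of all 27025 genes with one. GCGTG, the core to which the aryl hydrocarbon receptor binds, was in 20 of 33 (60.6%), against 54.2% of tested genes and 35.2% of all genes. The windows of Fbp2 and Slc16a3 held no GCGTG. The median GC content was 62.0% in the 33 genes and 60.7% in tested genes. A gene with more windows has more places for a match, and the number was not evened out. Pfkm and Pfkfb1 had 4 windows each, whereas the 27025 genes had 32851 windows in all. These are matches of letters in a window and carry no test.

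Glucose entry showed no called gene among 4, where 7.60% of all genes were called, with a median log2 fold change of 0.01. Slc2a4, the insulin-responsive transporter GLUT4 and the most abundant of the step per exon length, was at 419.8, 434 and 444 CPM in CAAHR and at 366, 472 and 420.1 CPM in GFP, so the groups overlapped. Its log2 fold change was 0.04 ± 0.12 (SE). Hk2, the main hexokinase of muscle, was at 377, 352 and 384 CPM in CAAHR against 361, 489 and 457 CPM in GFP, with a log2 fold change of -0.23 ± 0.13. Slc2a1, the basal transporter GLUT1, and Hk1, the widely expressed hexokinase, were near 10.2 CPM on average in GFP and had log2 fold changes of -0.03 and 0.13. All 4 genes overlapped between the groups, where 29.9% of all genes did not.

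Glycogen genes pointed in both directions, with 0 of 9 called, against 7.60% of all genes, and a median log2 fold change of -0.12. At an unadjusted p under 0.05 there were 4 on the higher side and 2 on the lower side, against 23.9% of all genes in either direction. Pygm, muscle glycogen phosphorylase, which releases glucose units from glycogen and is the most abundant gene of the step, was at 9044, 13929.8 and 11161 CPM in CAAHR and at 12837, 13653 and 12842 CPM in GFP. CAAHR library 34 was above every GFP library and the other CAAHR libraries were below them all, and the log2 fold change was -0.20 ± 0.17 (SE).

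Phosphorylase kinase, the enzyme that activates phosphorylase, is built from regulatory alpha and beta, catalytic gamma and calmodulin subunits. The alpha subunit Phka1 was at 1199, 1417 and 1111 CPM in CAAHR and at 961, 1066 and 851 CPM in GFP. The beta subunit Phkb was at 638, 809 and 676 CPM in CAAHR and at 577, 568 and 478 CPM in GFP. For both regulatory subunits each CAAHR library lay above each GFP library, with log2 fold changes of 0.37 ± 0.14 and 0.39 ± 0.13 (SE) and adjusted p-values of 0.131 and 0.105 by edgeR's quasi-likelihood test. The catalytic subunit Phkg1 was at 515, 753 and 547 CPM in CAAHR against 697, 641 and 634 CPM in GFP, which overlapped. The ratio of Phka1 to Phkg1 counts was 2.33, 1.88 and 2.03 in CAAHR and 1.38, 1.66 and 1.34 in GFP, and that of Phkb to Phkg1 was 1.24, 1.07 and 1.24 against 0.828, 0.886 and 0.753. These ratios were chosen after the values were seen and carry no test.

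Ppp1r3c, a subunit that targets protein phosphatase 1 to glycogen and favours its synthesis, was at 916, 990.3 and 899.5 CPM in CAAHR and at 404, 773 and 388 CPM in GFP. The CAAHR libraries were close together and above all GFP libraries, of which library 43 was near them. The log2 fold change was 0.84 ± 0.26 (SE), the largest on the higher side apart from Ldhb, with an adjusted p of 0.0906 by edgeR's quasi-likelihood test. Without GFP library 43 it was 1.24 with an adjusted p of 0.00195. The related targeting subunit of muscle, Ppp1r3a, had a log2 fold change of -0.21 ± 0.13.

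Genes that feed glycogen synthesis did not lie on 1 side. Gys1, muscle glycogen synthase, was at 393, 307 and 372 CPM in CAAHR and at 423, 451 and 545 CPM in GFP. Ugp2, which makes the UDP-glucose that the synthase uses, was at 549.9, 351 and 421 CPM in CAAHR and at 562, 666 and 569.9 CPM in GFP. For both genes the groups did not overlap and CAAHR library 34 was the lowest of all. Their log2 fold changes were -0.41 ± 0.14 and -0.44 ± 0.16 (SE), with adjusted p-values of 0.105 and 0.135 by edgeR's quasi-likelihood test. The branching enzyme Gbe1 stood on the other side, at 69.6, 41.7 and 59.9 CPM in CAAHR against 30.4, 44.2 and 45.7 CPM in GFP, with overlap through library 34.

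**Figure D2:**
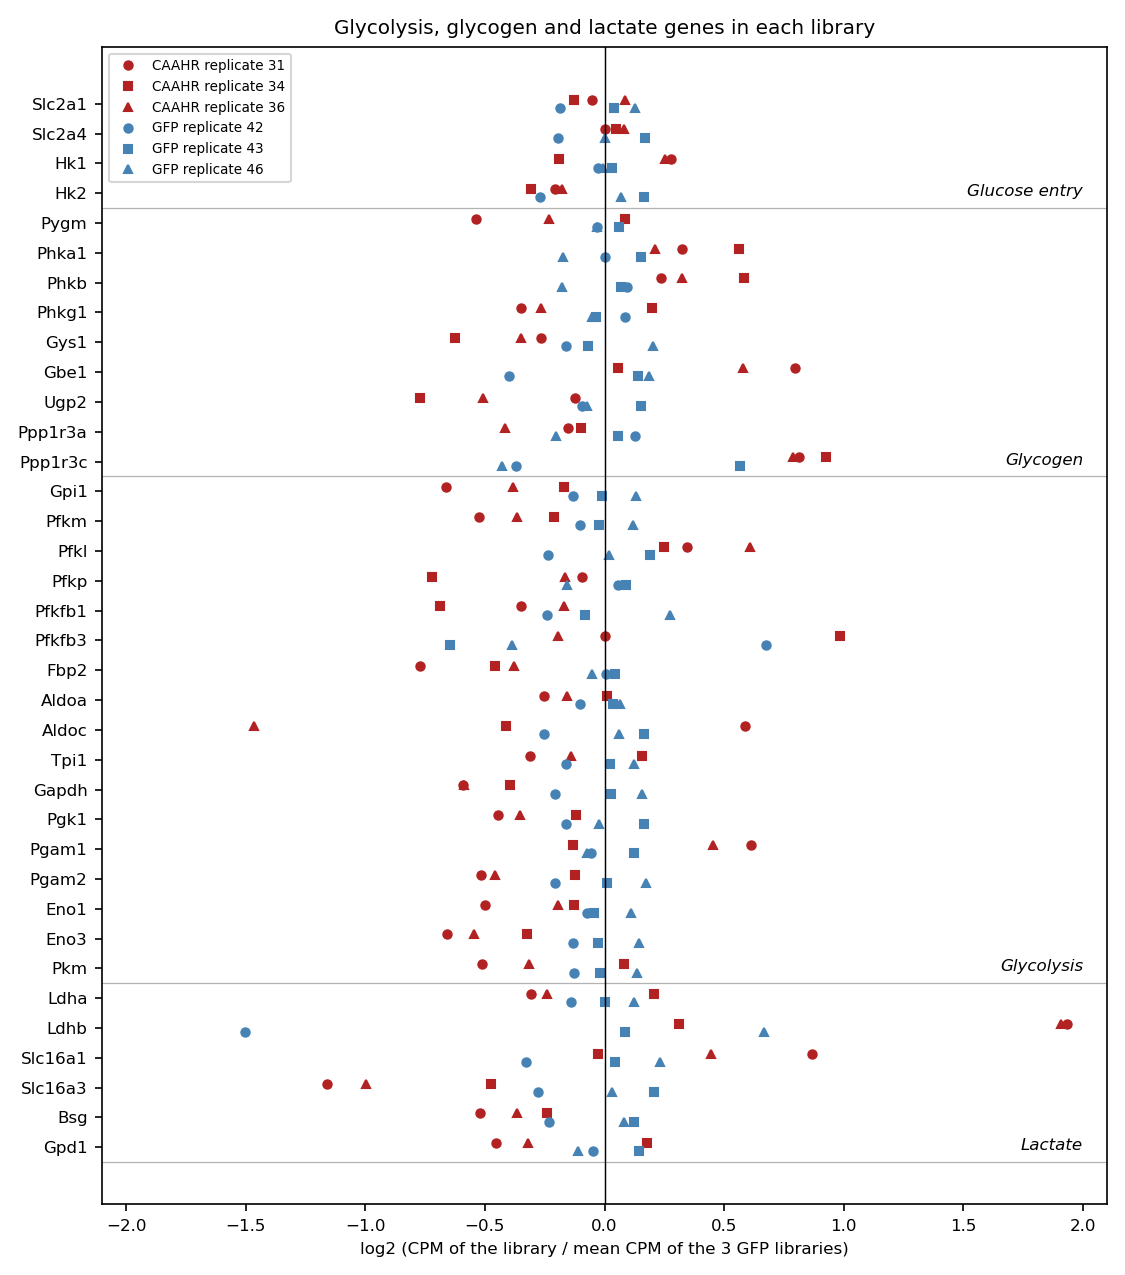
Level of each of the 36 genes in every library, as log2 of CPM over the mean of the 3 GFP libraries, with CAAHR libraries in red, GFP libraries in blue and a marker shape for each replicate. In glycolysis most red points lie left of the blue ones, and CAAHR replicate 34 (red square) is the highest CAAHR library for 11 of the 17 glycolysis genes.

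In glycolysis, 14 of 17 genes (82.4%) had a fitted change below 0, against 48.8% of all tested genes. The median log2 fold change was -0.30. Fbp2 was the 1 gene called, or 5.88% of the step, against 7.60% of all genes. At an unadjusted p under 0.05 there were 9 lower genes and 1 higher gene, against 23.9% of all genes in either direction. The 6 genes whose CAAHR libraries lay wholly below GFP, as for 14.9% of all genes, were Gpi1, Pfkm, Fbp2, Gapdh, Eno1 and Eno3. The 17 genes together took 3.87%, 4.59% and 4.09% of all counts in CAAHR and 4.45%, 4.74% and 5.14% in GFP, so the summed share of library 34 fell within the GFP range.

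Per kilobase of exon, Aldoa, the muscle aldolase, was the most abundant gene of the 36, at 6249.7 CPM per kb on average in CAAHR and 6835 CPM per kb in GFP. Its CPM were 16717, 20037 and 17824 in CAAHR and 18522, 20362 and 20810.0 in GFP, which overlapped, with a log2 fold change of -0.13 ± 0.14 (SE). Eno3, the muscle enolase, followed within the step at 2452 CPM per kb in CAAHR and 3471 CPM per kb in GFP. Gapdh, Pgam2 and Pfkm came next in GFP, with means of 1822, 1767 and 1560.2 CPM per kb. These levels spanned several orders of magnitude down to Aldoc, the brain aldolase, at 0.250 CPM per kb in GFP.

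**Figure D3:**
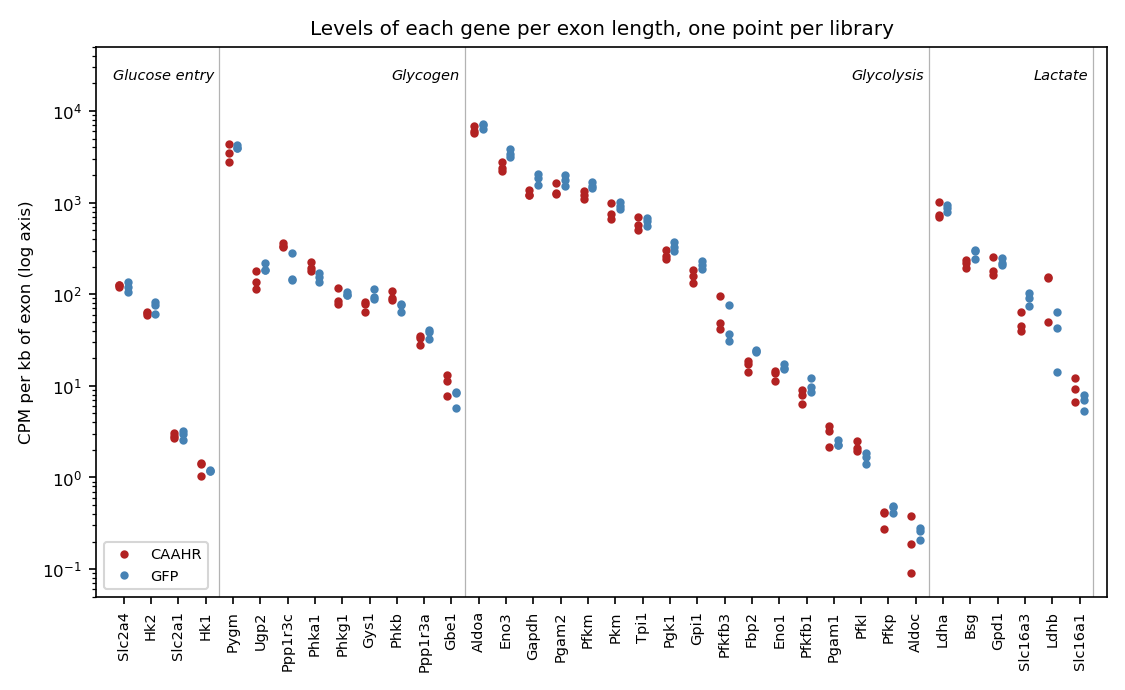
Level of each gene per kilobase of exon on a log axis, with 1 point for each CAAHR (red) and GFP (blue) library and genes ordered within each step by their GFP mean. The muscle isoforms Aldoa (6835 CPM per kb in GFP) and Eno3 (3471) lie far above their counterparts Aldoc and Eno1. Pygm is at 4074 CPM per kb in GFP, and the difference between groups is small beside that between genes.

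Gpi1, which converts glucose 6-phosphate to fructose 6-phosphate, was at 847, 1195 and 1029 CPM in CAAHR and at 1224, 1332 and 1470.4 CPM in GFP. Pfkm, the muscle form of phosphofructokinase, the committed step, was at 3620.1, 4500.3 and 4044 CPM in CAAHR and at 4858, 5124 and 5651 CPM in GFP. Neither gene overlapped between groups, and their log2 fold changes were -0.39 ± 0.15 and -0.36 ± 0.13 (SE) with adjusted p-values of 0.139 and 0.133 by edgeR's quasi-likelihood test. The liver form Pfkl was on the higher side at 13.9, 13.0 and 16.7 CPM in CAAHR against 9.28, 12.5 and 11.1 CPM in GFP, also without overlap, with an adjusted p of 0.111. Pfkfb1 and Pfkfb3, which make or remove the allosteric activator fructose 2,6-bisphosphate, had log2 fold changes of -0.39 ± 0.16 and 0.36 ± 0.49. Pfkfb3 had the largest SE of the step and lay between 318 and 718 CPM in CAAHR and between 232 and 579.5 CPM in GFP.

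Lower in the pathway, Gapdh, the triose phosphate dehydrogenase that is often used as a reference transcript, was at 4995, 5723 and 5011 CPM in CAAHR and at 6516, 7679 and 8392 CPM in GFP. Eno3 was at 3829, 4826 and 4137 CPM in CAAHR and at 5516, 5919 and 6672 CPM in GFP. In both genes every CAAHR library lay below every GFP library, with log2 fold changes of -0.52 ± 0.14 and -0.50 ± 0.14 (SE). Their adjusted p-values by edgeR's quasi-likelihood test were 0.0524 and 0.0593, the next after Fbp2 and Slc16a3 among the 36. Without CAAHR library 34 they were 0.0225 and 0.0164. Both genes were called in 5 of 16 alternative fits.

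The remaining enzymes of this stretch were Pgam2, the muscle phosphoglycerate mutase, with a log2 fold change of -0.35 ± 0.15 (SE), Pgk1, phosphoglycerate kinase, with -0.30 ± 0.13, and Eno1, the ubiquitous enolase, with -0.27 ± 0.12. Tpi1, triose phosphate isomerase, and Pkm, pyruvate kinase, had log2 fold changes of -0.08 ± 0.15 and -0.23 ± 0.17. The minor isoforms Pfkp, Aldoc and Pgam1 were each at most 7.20 CPM in every library and had log2 fold changes of -0.30 ± 0.18, -0.21 ± 0.46 and 0.35 ± 0.19. Pkm was at 3275, 4939 and 3746 CPM in CAAHR and at 4265, 4606 and 5128 CPM in GFP, with library 34 inside the GFP range.

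Lactate genes held the call for Slc16a3, 1 of 6 where 7.60% of all genes were called, with a median log2 fold change of -0.13. Bsg, basigin, the chaperone that carries the monocarboxylate transporters to the membrane, was at 355, 431 and 396 CPM in CAAHR and at 435, 556 and 539.6 CPM in GFP. The groups came within a few CPM of each other but did not overlap, and the log2 fold change was -0.37 ± 0.13 (SE, adjusted p = 0.115 by edgeR's quasi-likelihood test). Slc16a1, monocarboxylate transporter 1, was at 54.4, 29.3 and 40.6 CPM in CAAHR and at 23.8, 30.7 and 35.0 CPM in GFP, which overlapped, and the log2 fold change was 0.47 ± 0.23 (adjusted p = 0.274). Without CAAHR library 31 it was 0.22 and without CAAHR library 34 it was 0.66.

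Lactate dehydrogenase is a tetramer of A and B subunits, and muscle mainly holds the A subunit. Ldha was at 2327, 3322 and 2436 CPM in CAAHR and at 2613, 2880.5 and 3134 CPM in GFP, with a log2 fold change of -0.09 ± 0.16 (SE). Ldhb, the subunit typical of heart and oxidative fibres, was at 242, 78.5 and 237 CPM in CAAHR and at 22.4, 67.1 and 100.5 CPM in GFP. Libraries 31 and 36 were above all GFP libraries and library 34 was among them. The log2 fold change of 1.55 ± 0.72 was the largest of the 36 in size, with an adjusted p of 0.278 by edgeR's quasi-likelihood test. Gpd1, which passes cytosolic reducing equivalents to glycerol phosphate, had a log2 fold change of -0.17 ± 0.17.

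**Figure D4:**
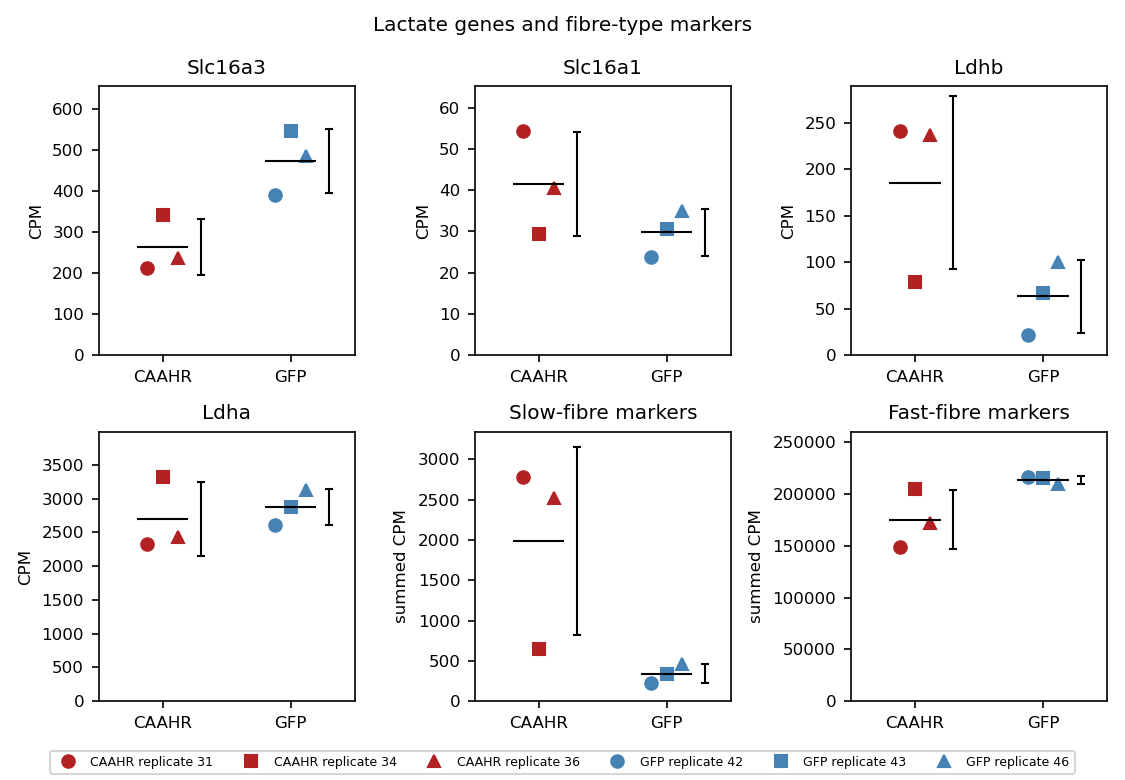
CPM of Slc16a3, Slc16a1, Ldhb and Ldha and summed CPM of 9 slow-fibre and 11 fast-fibre marker genes, with 1 point per library, a line at the mean of each group and a bar for the SD (n = 3). Slow-fibre markers, Ldhb and Slc16a1 share an order among the CAAHR libraries, with library 34 lowest, and Slc16a3 has the opposite order there. In GFP it does not, since library 42 is lowest in Slc16a3 and in the slow-marker sum.

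Summed fibre-type markers also differed between the groups. The 9 slow-fibre markers summed to 2783, 649 and 2518 CPM in CAAHR libraries 31, 34 and 36 and to 228, 333 and 461 CPM in GFP libraries 42, 43 and 46. All 9 had a fitted change above 0 (median log2 fold change 2.56), and 1 of them, Myh7b, was called. The 11 fast-fibre markers summed to 148587, 204846 and 171775 CPM in CAAHR and to between 209491 and 216528 CPM in GFP. Of these, 9 were below 0, and Myl1, Tnnt3 and Tnni2 were called lower. Myh1 and Myh2 were above 0 without a call, and library 34 was the lowest CAAHR library for both, at 2082 and 1334 CPM. As a mean of log2 values, the fast markers were at 13.048, 13.196 and 13.205 in CAAHR libraries 31, 34 and 36. The GFP libraries lay between 13.123 and 13.494, so the groups overlapped by that measure. Library 34 was lowest of the CAAHR libraries in the slow-marker sum and highest in the fast-marker sum. It was the highest CAAHR library for 21 of the 36 genes and the lowest for 12.

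With the mean of the 9 slow-fibre markers added to the model as a covariate, 14 of the 36 genes changed sign. Slc16a3 then had a log2 fold change of -0.36 (adjusted p = 0.566 by edgeR's quasi-likelihood test) and Fbp2 one of -0.38 (adjusted p = 0.390). The fitted change of Ldhb went from 1.55 to -0.79 and that of Slc16a1 from 0.47 to -0.46. Gapdh and Eno3 stayed below 0 at -0.46 and -0.33. In this fit Gys1 (-0.87, adjusted p = 0.0322), Pfkfb1 (-1.01, 0.0285) and Phkb (0.79, 0.0383) were called. These calls are 8.33% of the 36 genes, against 2.75% of all genes in the same fit. The covariate is aligned with the groups, since every CAAHR library had more slow-fibre signal than any GFP library, so fibre content and the transgene cannot be told apart in it.

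Markers of other cells also differed. The 7 lymphocyte markers summed to between 9.10 and 19.4 CPM in CAAHR and between 123 and 400.4 CPM in GFP, with 2 of 6 tested called lower. Ighm, an immunoglobulin heavy chain, made up between 121 and 392 CPM of the GFP sums and between 7.82 and 17.8 CPM of the CAAHR sums, and the other 6 markers summed to between 2.65 and 8.34 CPM in GFP and between 1.28 and 2.05 CPM in CAAHR. The 7 macrophage markers summed to between 20.3 and 35.3 CPM in CAAHR and between 43.6 and 98.9 CPM in GFP, with 0 of 7 called. The 6 neutrophil markers summed to between 1.49 and 1.96 CPM in CAAHR and between 4.72 and 11.4 CPM in GFP, with 2 of 3 tested called lower and Elane at 0 in every library and Mpo at 0 in every CAAHR library. The 7 adipocyte markers summed to between 86.5 and 139 CPM in CAAHR and between 109 and 231 CPM in GFP, with 3 of 7 called lower. Most of that sum was Fabp4, which endothelial cells also express, and the other 6 markers summed to between 3.69 and 21.3 CPM in CAAHR and between 36.6 and 98.8 CPM in GFP. Of the nerve (6), endothelial (6), erythroid (5) and fibroblast (5) markers tested, 0 were called, and at an unadjusted p under 0.05 there were 2, 1, 1 and 0. All 6 nerve markers had a fitted change below 0 (median log2 fold change -0.58). All 5 erythroid markers had one above 0 (median 0.36), and the endothelial and fibroblast markers lay on both sides. The part of these cells in the values of the 36 genes was not tested. In the paper, quantitative PCR of selected immune genes found them not downregulated in CAAHR muscle when compared with mice given no virus. The paper proposes a local immune response to the GFP virus. Whether CAAHR or GFP departed from muscle without virus was not tested here.

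Each of 8 pairs of related genes was also compared as a log2 ratio within a library, with an exact two-sided permutation test whose smallest possible p is 0.1 at this sample size, so no pair could pass a threshold of 0.05. The ratio of Slc16a1 to Slc16a3 was -1.97, -3.54 and -2.55 in CAAHR and -4.04, -4.16 and -3.79 in GFP, a difference of 1.31 (exact p = 0.1, adjusted over the 8 pairs 0.267). The difference was 0.77 for Pfkl to Pfkm and 0.23 for Eno1 to Eno3, each with an exact p of 0.1. In these 3 pairs every CAAHR library had a higher ratio than every GFP library. Ldhb to Ldha had the largest difference of the 8, at 1.74, but overlapped through library 34 (exact p = 0.2). The other 4 pairs overlapped as well, with differences of 0.67 for Pgam1 to Pgam2, 0.33 for Hk1 to Hk2, 0.04 for Pfkp to Pfkm and -0.28 for Aldoc to Aldoa.

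A wider list of 59 further genes of the same steps covered other isoforms, glycogen regulators and the pentose phosphate branch. It had 51 genes tested and 4 called, or 7.84%, near the 7.60% of all genes. Its median log2 fold change was -0.09. Tbc1d1, a Rab GTPase-activating protein that controls GLUT4 traffic, rose from 78.6, 92.5 and 77.8 CPM in GFP to 116, 119.7 and 135 CPM in CAAHR, and its log2 fold change was 0.58 ± 0.11 (SE, adjusted p = 0.0134 by edgeR's quasi-likelihood test). Slc2a3, the high-affinity transporter GLUT3 of neurons and blood cells, was at 23.7, 30.8 and 20.9 CPM in GFP and at 6.13, 8.70 and 5.27 CPM in CAAHR (log2 fold change -1.91 ± 0.21, adjusted p = 0.00185). None of these values overlapped between the groups.

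Tkt, the transketolase of the pentose phosphate branch, fell from 13.9, 14.2 and 15.4 CPM in GFP to 11.1, 10.4 and 9.83 CPM in CAAHR, a log2 fold change of -0.48 ± 0.10 (SE, adjusted p = 0.0247 by edgeR's quasi-likelihood test). Emb, embigin, a relative of basigin that also accompanies monocarboxylate transporters, was at 2.61, 2.60 and 2.72 CPM in GFP and at 1.11, 0.420 and 1.16 CPM in CAAHR, a log2 fold change of -1.56 ± 0.33 (adjusted p = 0.0236). Slc2a3 and Emb were lower in the same libraries as the lymphocyte, macrophage and neutrophil markers, whose part in these values was not tested.

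Some of the 36 genes have near copies or neighbours that could affect their counts. The authors counted unique reads only, so a read that fits several places would be left out. More than 5% of the 100-base stretches of their exons were also found in another annotated gene for 10 genes, among them Pgk1 (51.7%), Pgam1 (33.9%), Gapdh (20.9%), Eno1 (20.4%) and Pkm (12.3%). There were 20 genes with no shared stretch, including Slc16a3 and Fbp2. Exons of another gene lay on the opposite strand over 13.0% of the exon length of Gpd1, 11.5% of Gpi1, 9.68% of Phkg1 and 6.47% of Gys1. Whether counting used strand was not stated for these libraries, so those values carry that uncertainty. Exons of another gene on the same strand covered 15.3% of the exon length of Pkm and 10.2% of that of Pfkm, where reads of the 2 genes cannot be told apart by strand.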

How the data were processed

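Poly(A) RNA from 6 gastrocnemius muscles was sequenced as paired ends of 150 bases. Per the submitters' notes and the methods, the authors trimmed reads with Trimmomatic 0.36, aligned them to GRCm38 with STAR 2.5.2b and counted unique exon reads per gene with featureCounts. The deposited values are whole-number counts per gene, not normalized and not pooled. Whether counting used strand was not stated.

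Counts were analysed with edgeR 4.0.16 in R 4.3.3 (filterByExpr, TMM scaling, robust quasi-likelihood F test, group as the single term, Benjamini-Hochberg adjustment over 15847 genes, threshold 0.05). SEs were derived from the F statistic. CPM are counts relative to the TMM-scaled library size. Depth was 43432994 to 58825752 counts per library. Exon lengths and positions came from GENCODE on GRCm38 and promoter windows from RefSeq (GRCm38.p6). Ratios were taken after adding 0.5 to each count. The calculations were tested on simulated counts.

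The 36 genes, the wider list, the markers and the tests were chosen with earlier results of these data known. Values in every library were given for called genes, the most abundant gene of each step and described isoform pairs, and, after their values were seen, for further genes whose groups did not overlap or which library 34 set apart. Alternatives covered scaling, filters, DESeq2 1.42.0, limma 3.58.1 (voom), a slow-fibre covariate and leaving out each library.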

Additional observations from a re-analysis of the deposited data

How the results depend on the processing

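No paired analysis was possible because no number occurs in both groups. The calls of Fbp2 and Slc16a3 held in 12 and 11 of 16 alternatives and were lost with the slow-fibre covariate and in the fits without 1 library given above. The number of the 36 genes called was 4 with upper quartile scaling (3 in glycolysis, all 4 lower), 4 with limma-voom (3 in glycolysis, all 4 lower), 9 with DESeq2 (3 in glycogen, 4 in glycolysis, 2 in lactate) and 15 without a filter on low counts (6 in glycogen, 6 in glycolysis, 3 in lactate). Library size alone gave 3 calls, 1 of them higher, with 1 in glycogen and a median of -0.12, and the covariate gave 3, 1 of them higher, with 2 in glycogen and 0 in lactate. All genes called numbered 2470 of 28661 without the filter and, of 15847, 1923 with DESeq2, 1461 with limma-voom, 1348 with upper quartile scaling, 1476 with library size alone and 436 with the covariate, against 1205, and the wider list had 14 without the filter and 8 with DESeq2, against 4. Of all calls, 60.1% were lower, against 73.4% with upper quartile scaling and 40.7% with library size alone, with between 24 and 26 of the 36 genes below 0 under each scaling. The cause was not tested.

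Leaving out 1 library gave between 530 and 1727 genes called, between 0 (without GFP 46) and 9 (without CAAHR 34) of the 36, between 0 and 1 in glycogen, 0 and 7 in glycolysis and 0 and 1 in lactate, between 1 and 7 of the wider list, and medians between -0.27 and -0.093. The ratio difference of Aldoc to Aldoa ranged from -0.85 to 0.21 (without CAAHR 36), and that of Pfkp to Pfkm from -0.15 to 0.32, below 0 without CAAHR 31, CAAHR 36 (-0.037) or GFP 46 (-0.093).

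Log2 fold changes, none called, that changed sign with the covariate were Slc2a4 (-0.011), Hk1 (-0.35), Pygm (0.26), Phkg1 (0.42), Gbe1 (-0.36), Ppp1r3a (0.082), Aldoa (0.026), Tpi1 (0.19), Pgam1 (-0.36), Pkm (0.15), Ldha (0.28), Ldhb (-0.79), Slc16a1 (-0.46) and Gpd1 (0.40). Others that changed sign were Slc2a4 with upper quartile scaling (-0.028) and Slc2a1 with library size alone (0.054) and limma-voom (0.018). Leaving out 1 library gave ranges that crossed 0 for Slc2a1 (-0.11 to 0.039), Slc2a4 (-0.043 to 0.14), Tpi1 (-0.23 to 0.011), Pfkfb3 (-0.099 to 0.87) and Aldoc (-0.85 to 0.16). With 3 libraries a group, changes smaller than the SEs given could not be told from 0. Larger ones could also miss the threshold, as Gapdh did in the reported fit at -0.52 ± 0.14 (SE, adjusted p = 0.0524 by edgeR's quasi-likelihood test).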
